A study of Mus musculus with 20 samples.

Results

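The genes described here are 10 genes of modified-lipoprotein uptake and cholesterol export, measured by RNA-seq in dendritic cells grown from mouse bone marrow (BMDCs). They are the scavenger receptors *Msr1*, *Cd36*, *Olr1*, *Marco* and *Scarb1*, the efflux transporters *Abca1* and *Abcg1*, the nuclear receptors *Nr1h3* (LXRα) and *Pparg* (PPARγ), and the LXR target *Mylip*. They were chosen by symbol from the deposited count table, and all 10 were among the 24421 genes listed and among the 12465 that passed the filter on low counts and were tested.

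The study examined how inhibition of the BET family, bromodomain proteins that read acetylated histones, modifies the response of mononuclear phagocytes to IgG immune complexes. Marrow of 5 mice, A to E, was cultured for 8 days with GM-CSF at 40 ng/mL, conditions known to give both dendritic cells and macrophage-like cells. The labels describe cells as sorted into lysis buffer and name no gate, whereas the methods describe lysis in culture, so how mixed the libraries are is not settled by these sources. Cells of each mouse then received either DMSO, given as 5% in the labels, or the BET inhibitor I-BET151 (iBET) at 3.3 μM, with ovalbumin alone (Ova) or ovalbumin bound by rabbit antibody (IC), for 4 hours. The groups with DMSO were thus DMSO Ova and DMSO IC, and those with inhibitor iBET Ova and iBET IC, each with 5 libraries, taken as 1 from each mouse. The titles give a running number and the group but name no mouse. Letters A to E were therefore inferred from the order of the titles, in which each run holds every group once. The study states 5 replicates from independent mice and does not say that the groups share them. The labels name neither a strain nor the age or sex of each animal, and no genotype. The methods list wild-type C57BL/6 mice of both sexes beside fluorescent reporter and Fcgr2b-deficient lines, without saying which gave the RNA-seq cultures. The methods name 5% DMSO only for the solution given to live mice, and for cultures a stock of inhibitor in DMSO that was diluted. The DMSO content of the cultures is thus not settled by these sources. Whether the iBET cultures held the same amount of DMSO is not given in the labels, and the labels describe inhibitor and stimulus as given together whereas the methods place the inhibitor first.

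Scavenger receptors bind oxidized or acetylated lipoproteins, apoptotic cells and bacterial ligands and take them up without feedback from the cholesterol content of the cell. Cholesterol that enters this way is sensed as oxysterol by LXR, a nuclear receptor that pairs with RXR and switches on *Abca1* and *Abcg1*, which pass cholesterol to apolipoprotein A-I and to HDL, and *Mylip*, which encodes a ubiquitin ligase. PPARγ, which GM-CSF induces in myeloid cells, drives *Cd36* and fatty acid genes and lies upstream of *Nr1h3* in macrophages.

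LXR with RXR is known to bind direct repeats of the hexamer AGGTCA with 4 bases between the copies (DR4), and PPARγ with RXR the same repeat with 1 base between (DR1). RefSeq promoter windows on GRCm38.p6, which run from 250 bases before to 50 bases after a start site, were given for 7 of the 10 genes (*Marco*, *Nr1h3*, *Abca1*, *Cd36*, *Pparg*, *Olr1* and *Mylip*). They were searched on both strands with up to 2 mismatches over the 12 letters of the repeat. DR4 was found in 0 of these 7 genes and in 3.47% of the 27025 genes with such a window, and DR1 was found in 1 of 7, *Cd36*, and in 4.4% of all. With up to 3 mismatches, DR4 was found in *Abca1* and *Pparg* (24.5% of all genes) and DR1 in *Cd36* and *Olr1* (27.3% of all genes). The 250 bases before the start are printed for the 3 genes with a match wholly upstream of it, since they belong to the efflux and uptake arms described below. They were *Abca1* at chr4:53159896-53160145, *Cd36* at chr5:17835897-17836146 and *Olr1* at chr6:129507166-129507415, all on the minus strand and written 5′ to 3′ along the gene, with capitals for the repeats found with up to 3 mismatches.
Abca1: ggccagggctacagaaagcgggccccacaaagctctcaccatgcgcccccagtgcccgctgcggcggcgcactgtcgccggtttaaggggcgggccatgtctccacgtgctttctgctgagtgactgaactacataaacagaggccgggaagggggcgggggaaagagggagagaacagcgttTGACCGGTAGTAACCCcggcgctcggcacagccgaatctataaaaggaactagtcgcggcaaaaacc
Cd36: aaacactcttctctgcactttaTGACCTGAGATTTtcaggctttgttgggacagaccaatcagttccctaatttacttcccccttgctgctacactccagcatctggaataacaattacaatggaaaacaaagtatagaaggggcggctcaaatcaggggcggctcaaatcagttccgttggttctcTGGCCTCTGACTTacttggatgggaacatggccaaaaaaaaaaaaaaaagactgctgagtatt
Olr1: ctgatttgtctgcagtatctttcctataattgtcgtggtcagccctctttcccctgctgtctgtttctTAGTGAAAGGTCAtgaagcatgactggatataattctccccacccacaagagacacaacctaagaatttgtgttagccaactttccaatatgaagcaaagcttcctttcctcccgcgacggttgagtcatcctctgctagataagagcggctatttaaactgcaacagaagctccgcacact

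In *Abca1* the capitals mark a DR4 with 3 mismatches on the opposite strand, 67 to 52 bases before the start. In *Cd36* the second run of capitals is the DR1 with 2 mismatches, 63 to 51 bases before the start, and the first is a DR1 with 3 mismatches, both on the opposite strand. A further DR1 with 3 mismatches lay 8 to 20 bases after the start on the gene's own strand, beyond the printed bases. The start of this *Cd36* window, at 17835896, lies inside the gene, whose 5′ end is at 17888801. In *Olr1* they mark a DR1 with 3 mismatches on the gene's own strand. These matches describe letters in a window and were not tested for binding.

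Total counts per library ranged from 16447491 to 29245150. Levels are given as CPM, counts scaled to library size after TMM normalization, with the SD over 5 mice. All 9 dendritic cell markers of the list passed the filter, with *Itgax* (CD11c) at a mean of 1962 and *Cd74* at 2661 CPM in DMSO Ova, whereas others were lower with iBET. From DMSO Ova to iBET Ova the mean of *Ciita* went from 43.8 to 1.36 CPM, of *Flt3* from 3.03 to 0.242, of *Fscn1* from 267.9 to 63.1, of *Dpp4* from 17.0 to 6.46 and of *Ccr7* from 461 to 331. The summed level of the 9 was 4383 to 7160 CPM in DMSO Ova, 5113 to 8223 in DMSO IC, 4577 to 7153 in iBET Ova and 5461 to 8908 in iBET IC. All 10 macrophage and monocyte markers of the list were measured and none was at 0. Their summed level was 1488 to 2234 CPM in DMSO Ova and 1645 to 2237 in DMSO IC, and 1070 to 1507 in iBET Ova and 1125 to 1742 in iBET IC. These ranges were lower with iBET and overlapped those with DMSO, and the part of either list in the falls described below was not tested. In such bulk libraries fewer cells of a type and less RNA per cell cannot be told apart. Mice also differed: on the second principal component, which held 14.9% of the variance, mice A and B had scores from -33.8 to -18.6, whereas the other 3 mice had scores from 9.83 to 23.5. The methods describe removal of batch effects, and the titles name no batch, so mouse and batch cannot be told apart here.

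In DMSO Ova cultures the levels per kb of exon spanned 2 orders of magnitude. *Cd36*, the class B receptor for oxidized LDL and fatty acids, stood first at 209 ± 40.7 CPM per kb and *Abcg1* second at 134 ± 10.3, and their ranges over the 5 mice did not overlap each other or that of any lower gene. *Msr1* (39.6), *Abca1* (38.9) and *Marco* (31.6) followed, each neighbour overlapping the next, and the range of *Marco* overlapped that of *Olr1*, which ranged from 18.2 to 26.5. *Mylip* (8.92), *Scarb1* (7.09) and *Pparg* (6.80) also overlapped with their neighbours, and *Nr1h3* was lowest at 1.94 ± 0.646 CPM per kb, below all others. *Cd36* and *Abcg1* kept the first and second place and *Nr1h3* the last in all 4 groups. *Olr1* changed place most, from rank 3 in DMSO IC (47.0 CPM per kb) to rank 7 in iBET Ova (6.70).

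**Figure D1:**
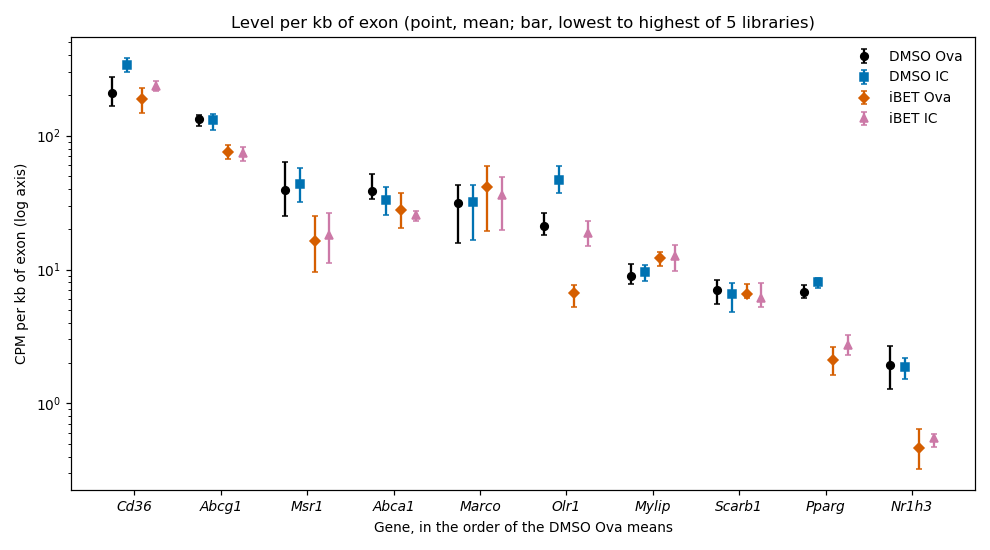
Mean level of each gene in CPM per kb of exon on a log axis, with bars from the lowest to the highest of 5 libraries, by group. *Cd36* and *Abcg1* lie above the other genes in each group and *Nr1h3* lies below them, at 1.94 CPM per kb in DMSO Ova and 0.467 in iBET Ova.

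iBET lowered most of these genes. Against DMSO in Ova cultures, 6 of the 10 genes fell and 1 rose (edgeR's quasi-likelihood test, Benjamini-Hochberg adjusted p under 0.05 over all 12465 genes), where 28.9% of all genes tested fell and 27.7% rose. In IC cultures again 6 fell and 1 rose, where 29% of all genes fell and 27.1% rose. The median log2 fold change of the 10 genes was -0.65 in Ova and -0.67 in IC, beside -0.0029 and -0.0054 over all genes tested. TMM scales libraries to the bulk of genes, which keeps the median over all genes small. Falls and rises are thus relative to that bulk, and a change of total RNA per cell was not measured. Since the libraries of a mouse deviated together, the fit with the mouse as a replicate block is given for the 10 genes where it changed a call. It called 2 higher and 6 lower in Ova and 2 higher and 7 lower in IC, while it called 68.7% and 68% of all genes in either direction. Mice A and B alone gave 6 calls among the 10 genes in Ova and 8 in IC, and mice C, D and E alone gave 8 and 7.

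**Figure D2:**
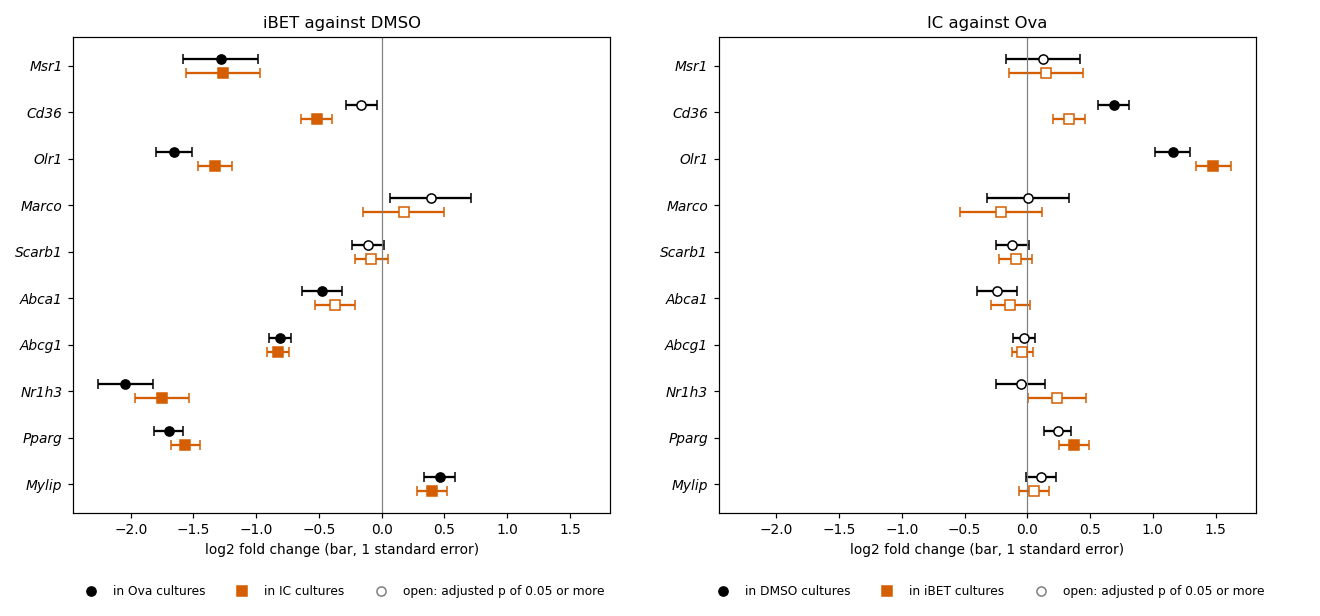
Log2 fold change of the 10 genes with 1 standard error, for iBET against DMSO (left, in Ova and in IC cultures) and for IC against Ova (right, in DMSO and in iBET cultures), from the fit of 20 libraries. Filled points passed an adjusted p of 0.05, and with iBET *Nr1h3* (-2.04 in Ova) and *Pparg* (-1.70) lie farthest to the left, while with IC the largest values belong to *Olr1* (1.16 and 1.48).

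The nuclear receptors fell furthest. *Pparg* (chromosome 6, 115360951 to 115490399, plus strand, GRCm38) encodes PPARγ. In DMSO Ova it was at 22.6, 18.7, 18.2, 20.3 and 20.6 CPM in mice A to E. In iBET Ova it was at 5.57, 4.83, 6.42, 7.84 and 6.32 CPM. With IC it went from between 21.5 and 25.6 CPM with DMSO to between 6.82 and 9.62 with iBET. The groups did not overlap, and every mouse was lower with iBET. The fall was 3.24-fold in Ova (log2 fold change -1.70, SE 0.115, edgeR adjusted p = 2.65e-10) and 2.96-fold in IC (-1.56, SE 0.113, adjusted p = 6.14e-10). Of the 2953 exon bases of *Pparg*, 513 overlap the antisense gene *Gm44079*, and because the strand setting of the counting is not stated, reads of the gene and of its antisense partner may not be separated.

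*Nr1h3* (chromosome 2, 91184061 to 91202834, minus strand) encodes LXRα, the oxysterol sensor of macrophages. In DMSO Ova it was at 6.79, 6.17, 3.20, 3.33 and 4.92 CPM in mice A to E. In iBET Ova it was at 1.62, 1.25, 1.11, 0.811 and 1.09 CPM. With IC it went from between 3.83 and 5.51 CPM to between 1.19 and 1.48 CPM. All iBET libraries were below all DMSO libraries of the same stimulus. These values rest on 68 to 180 reads per library in DMSO Ova and 18 to 40 in iBET Ova. The fall was 4.12-fold in Ova (log2 fold change -2.04, SE 0.219, edgeR adjusted p = 1.59e-07) and 3.37-fold in IC (-1.75, SE 0.215, adjusted p = 9.02e-07). The gene shares 34 exon bases with the overlapping *Gm13783* on the same strand.

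Of the genes that LXR is known to switch on, *Abcg1* fell and *Mylip* rose under both stimuli, while *Abca1* fell in Ova cultures and was close to the threshold in IC cultures. *Abcg1* (chromosome 17, 31057675 to 31117988, plus strand) encodes the transporter that passes cholesterol to HDL. In DMSO Ova it was at 1030, 994, 859, 1045 and 946 CPM in mice A to E, and in iBET Ova at 595, 512, 485, 624 and 557 CPM. The levels in IC cultures were close to these, 808 to 1068 CPM with DMSO and 473 to 599 CPM with iBET. The groups with and without iBET did not overlap. The fall was 1.76-fold in Ova (log2 fold change -0.81, SE 0.0872, edgeR adjusted p = 1.55e-07) and 1.77-fold in IC (-0.82, SE 0.0872, adjusted p = 1.23e-07).

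*Abca1* (chromosome 4, 53030787 to 53159895, minus strand), whose protein loads cholesterol onto apolipoprotein A-I, moved less. It was at 348, 539, 356, 411 and 362 CPM in DMSO Ova and at 315, 386, 251, 285 and 210 CPM in iBET Ova. In IC cultures it was at 398, 431, 288, 323 and 265 CPM with DMSO and 282, 279, 249, 271 and 237 with iBET. All 5 mice were lower with iBET under both stimuli, although the groups overlapped. In Ova the fall was 1.39-fold (log2 fold change -0.48, SE 0.158, edgeR adjusted p = 0.0143), and without mouse D it did not pass (-0.46, adjusted p = 0.062). In IC the log2 fold change was -0.37 (SE 0.158, adjusted p = 0.0515). It passed in 7 of 13 alternative fits, among them the replicate block (-0.35, adjusted p = 0.0013) and the fit without mouse E (-0.41, adjusted p = 0.0405).

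*Mylip* (chromosome 13, 45389742 to 45412022, plus strand) was the 1 gene of the 10 that passed as a rise in the fit without the mouse. With the replicate block *Marco* passed as a rise as well, as given below. *Mylip* was at 27.9, 35.8, 26.0, 29.2 and 25.3 CPM in DMSO Ova and at 43.5, 41.3, 34.6, 42.2 and 36.8 CPM in iBET Ova. With IC it was at 26.6 to 35.0 CPM with DMSO and 31.3 to 49.3 with iBET. All 5 mice were higher with iBET under both stimuli, and the groups overlapped. The rise was 1.38-fold in Ova (log2 fold change 0.46, SE 0.122, edgeR adjusted p = 0.00303) and 1.32-fold in IC (0.40, SE 0.121, adjusted p = 0.0081).

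**Figure D3:**
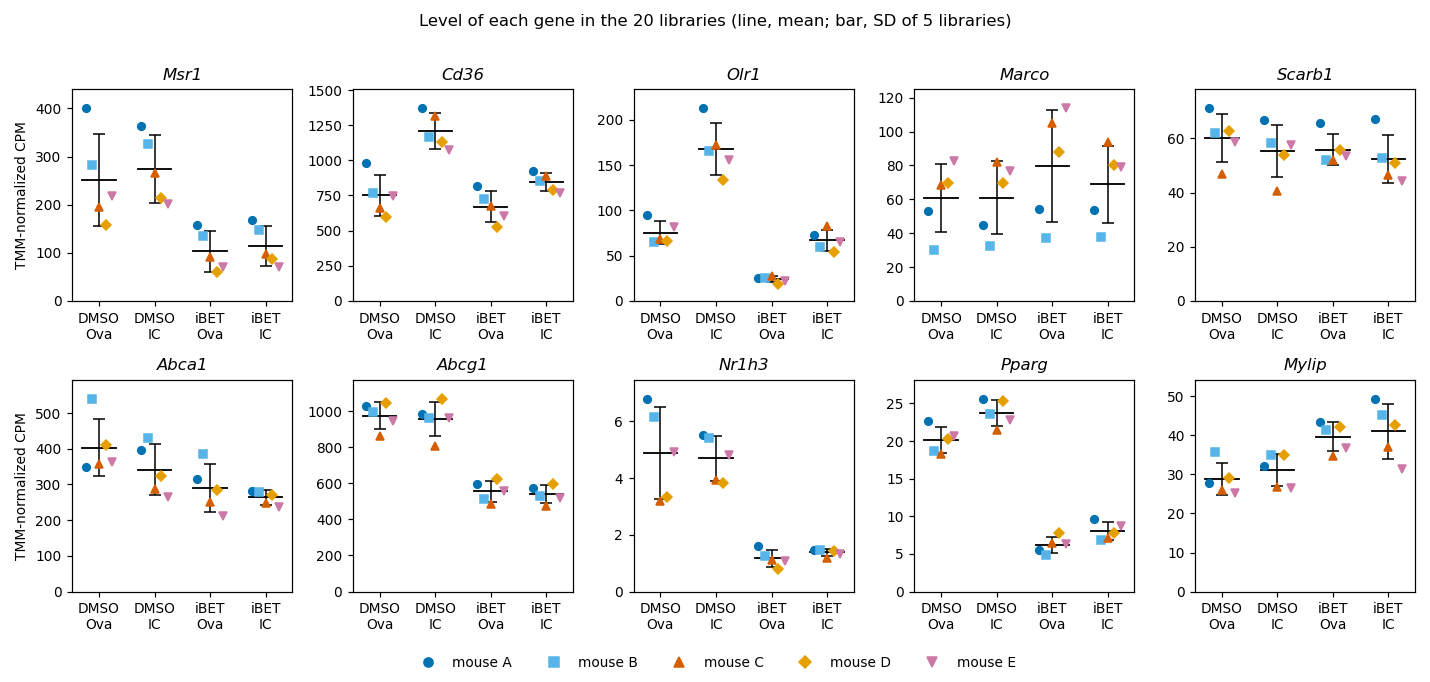
TMM-normalized CPM of each gene in the 20 libraries, 1 panel per gene, with the 4 groups on the horizontal axis, mice by colour and symbol, and the mean and SD of 5 libraries in black. *Pparg*, *Nr1h3*, *Abcg1* and *Olr1* separate fully by iBET within each stimulus, and for *Marco* mice A and B lie below mice C, D and E in each group.

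Among the scavenger receptors, *Olr1* and *Msr1* fell under both stimuli and *Cd36* fell in IC cultures. *Marco* and *Scarb1* did not pass in the fit without the mouse, while *Marco* passed as a rise with the replicate block. *Olr1* (chromosome 6, 129485244 to 129507165, minus strand) encodes LOX-1, the lectin-like receptor for oxidized LDL. In DMSO Ova it was at 94.6, 65.1, 68.0, 66.4 and 81.8 CPM in mice A to E, and in iBET Ova at 25.3, 25.5, 27.4, 18.9 and 22.6 CPM. In DMSO IC it was at 213, 165, 172, 134 and 156 CPM, and in iBET IC at 72.7, 59.7, 82.7, 53.8 and 65.5 CPM. The iBET libraries lay below all DMSO libraries of the same stimulus. The fall was 3.14-fold in Ova (log2 fold change -1.65, SE 0.143, edgeR adjusted p = 7.72e-09) and 2.51-fold in IC (-1.33, SE 0.139, adjusted p = 1.07e-07).

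*Msr1* (chromosome 8, 39581685 to 39642673, minus strand) encodes the class A receptor for acetylated LDL and bacterial surfaces. It was at 400, 283, 195, 158 and 219 CPM in DMSO Ova and at 159, 135, 90.9, 60.7 and 70.7 CPM in iBET Ova. In IC cultures it was at 364, 326, 267, 213 and 202 CPM with DMSO and at 168, 147, 98.4, 86.3 and 70.6 CPM with iBET. Mice A and B were above mice C, D and E in every group. Within each mouse the level with iBET was lower, and in IC cultures the groups did not overlap, while in Ova the highest iBET library was just above the lowest DMSO library. The fall was 2.43-fold in Ova (log2 fold change -1.28, SE 0.299, edgeR adjusted p = 0.0011) and 2.40-fold in IC (-1.26, SE 0.298, adjusted p = 0.00126).

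*Cd36* (chromosome 5, 17781690 to 17888801, minus strand) was at 982, 767, 661, 598 and 748 CPM in DMSO Ova and at 820, 724, 676, 526 and 607 CPM in iBET Ova. These groups overlapped, and the log2 fold change of -0.16 (SE 0.124) did not pass (edgeR adjusted p = 0.272). In Ova *Cd36* passed as a fall with surrogate variables (-0.16, adjusted p = 0.0474) and did not with the replicate block (-0.16, adjusted p = 0.0534). In DMSO IC it was at 1370, 1164, 1315, 1130 and 1073 CPM and in iBET IC at 921, 854, 886, 791 and 771 CPM. There the groups did not overlap and *Cd36* fell 1.43-fold (log2 fold change -0.52, SE 0.124, adjusted p = 0.00139). Whether the effect differed between the stimuli is given by the interaction below.

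*Marco* (chromosome 1, 120474538 to 120505024, minus strand), a class A receptor for bacteria and particles, was at 53.0, 30.2, 68.7, 69.5 and 82.6 CPM in DMSO Ova and at 54.1, 37.4, 105, 88.0 and 114 CPM in iBET Ova. With IC it was at 32.1 to 82.0 CPM with DMSO and at 37.8 to 94.0 CPM with iBET. Mice A and B were the lowest in every group, the reverse of *Msr1*. The 5 mice were all higher with iBET under both stimuli, by 0.029 to 0.62 on the log2 scale in Ova and by 0.048 to 0.25 in IC. In the fit without the mouse the log2 fold change was 0.39 in Ova (SE 0.326, edgeR adjusted p = 0.321) and 0.17 in IC (SE 0.326, adjusted p = 0.671). With the replicate block it passed in both, at 0.35 (adjusted p = 0.000408) and 0.19 (adjusted p = 0.0317), and in mice C, D and E alone it was 0.52 in Ova (adjusted p = 0.000929).

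*Scarb1* (chromosome 5, 125277087 to 125341094, minus strand), the HDL receptor SR-B1, was at 46.8 to 71.2 CPM in DMSO Ova, 40.7 to 67.0 in DMSO IC, 52.1 to 65.9 in iBET Ova and 44.4 to 67.1 in iBET IC. The 4 groups overlapped. With iBET the log2 fold change was -0.11 in Ova, with an interval of 2 SE on either side from -0.37 to 0.15, and -0.083 in IC, with an interval from -0.34 to 0.18. Neither passed (edgeR adjusted p = 0.49 and 0.607).

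The genes that passed with IC were *Olr1* and *Cd36* in DMSO cultures and *Olr1* and *Pparg* in iBET cultures, a share near that of all genes with DMSO. Against Ova in DMSO cultures, 2 of the 10 rose and 0 fell, where 9.59% of all genes tested rose and 10.7% fell. In iBET cultures 2 rose and 0 fell, where 5.19% rose and 6.63% fell. With the replicate block 3 rose and 1 fell in DMSO cultures and 3 rose and 0 fell in iBET cultures, where it called 38.1% and 28.9% of all genes. In mice A and B alone the calls numbered 1 and 1, and in mice C, D and E alone 3 and 2. The median log2 fold change of the 10 genes was 0.058 in DMSO and 0.099 in iBET cultures, beside -0.024 and -0.014 over all genes. Scaling by library size alone moved the last pair to -0.13 and -0.12.

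*Olr1* rose with IC in 5 of 5 mice under both treatments, and its groups did not overlap. The per-mouse values above amount to a 2.23-fold rise with DMSO (log2 fold change 1.16, SE 0.138, edgeR adjusted p = 1.1e-05) and a 2.80-fold rise with iBET (1.48, SE 0.142, adjusted p = 1.28e-06). With IC and iBET together its mean was 66.9 ± 11.3 CPM, next to 75.2 ± 12.7 CPM in DMSO Ova, and the ranges of these groups overlapped.

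*Cd36* rose 1.61-fold with IC in DMSO cultures (log2 fold change 0.69, SE 0.124, edgeR adjusted p = 0.000709), and all DMSO IC libraries were above all DMSO Ova libraries. In mice A and B alone it was 0.52 (adjusted p = 0.0706). In iBET cultures it was higher with IC in 5 of 5 mice, and the log2 fold change of 0.33 (SE 0.124) did not pass (adjusted p = 0.0874), though it did with the replicate block (0.35, adjusted p = 0.00161) and without mouse A (0.38, adjusted p = 0.0359). *Pparg* rose 1.29-fold with IC in iBET cultures (0.37, SE 0.116, adjusted p = 0.0421), in 4 of 5 mice. This call was lost without mouse A (0.26, adjusted p = 0.22), without mouse B (0.35, adjusted p = 0.0953), without mouse C (0.43, adjusted p = 0.0907) and without mouse E (0.35, adjusted p = 0.135). For *Pparg* it was also lost with surrogate variables (0.28, adjusted p = 0.0583), with library size only (0.26, adjusted p = 0.124), without the filter on low counts (0.37, adjusted p = 0.0719) and in a fit of the 10 libraries alone (0.38, adjusted p = 0.113). With the replicate block the call held (0.38, adjusted p = 0.0079). In DMSO cultures *Pparg* was at 0.24 (SE 0.108, adjusted p = 0.123), higher in 5 of 5 mice, and passed with the replicate block (0.24, adjusted p = 0.0235).

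The efflux transporters and LXRα did not pass with IC. For *Abca1* the log2 fold change was -0.24 in DMSO cultures (SE 0.157, edgeR adjusted p = 0.306). It was lower in 4 of 5 mice and passed with the replicate block (-0.25, adjusted p = 0.0251). For *Abcg1* it was -0.028 (SE 0.0866), with an interval of 2 SE on either side from -0.20 to 0.15, the narrowest of the 10 genes. For *Nr1h3* it was -0.054 in DMSO cultures, with an interval from -0.45 to 0.34. In iBET cultures the log2 fold change was -0.14 for *Abca1*, -0.039 for *Abcg1* and 0.24 for *Nr1h3*. The interval of *Nr1h3* there ran from -0.23 to 0.70, and it was higher with IC in 4 of 5 mice. *Msr1*, *Marco*, *Scarb1* and *Mylip* lay between -0.12 and 0.13 in DMSO cultures and between -0.21 and 0.15 in iBET cultures.

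The interaction, defined as the iBET effect in IC cultures minus that in Ova cultures, passed for 0 of the 10 genes, where it was higher for 0.0241% and lower for 0.016% of all genes (edgeR, 5 genes in all). At an unadjusted p under 0.05 it held 543 genes and 0 of the 10. With the replicate block and with DESeq2's Wald test, with and without the block, it was also 0 of the 10. The 2 largest values were -0.36 for *Cd36* (SE 0.175), lower in 5 of 5 mice, and 0.32 for *Olr1* (SE 0.196), higher in 4 of 5. The difference in *Cd36* between the stimuli therefore did not pass (edgeR adjusted p = 0.9999, and 0.126 with the block).

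The counts below cover 7 lists of related genes taken from textbook knowledge, to be read beside the shares of all genes given above. *Nr1h2*, *Ncor1*, *Ncoa1*, *Arl4c*, *Apoe*, *Lpl*, *Plin2*, *Hilpda*, *Stab1*, *Colec12*, *Scarf1*, *Scarf2*, *Cd68*, *Mrc1*, *Gramd1b*, *Osbpl8*, *Lipa*, *Slc25a20*, *Abca3* and *Abca7* were named after their values were seen. Of 8 tested nuclear receptors and cofactors, 1 rose and 2 fell with iBET in Ova, and 2 rose and 3 fell in IC. *Rxra*, the shared partner of both receptors, fell 2.02-fold in Ova (log2 fold change -1.01, SE 0.117, edgeR adjusted p = 4.36e-07) and by 1.02 on the log2 scale in IC. *Ppargc1b*, a PPAR coactivator, fell as well (-0.80 and -0.68). *Nr1h2* (LXRβ) rose by 0.25 under both stimuli (adjusted p = 0.0191 and 0.0195). In IC *Ncor1*, a corepressor, also fell, by 0.21, and *Ncoa1*, a coactivator, rose by 0.23. In Ova the rise was lost without mouse A, D or E, and in IC the rises numbered 0 without mouse C or D and 1 without mouse E. The replicate block added *Ncor1* to the falls in Ova (adjusted p = 0.0154).

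Other target genes did not move as a block. Of 12 tested LXR targets, 0 rose and 1 fell in Ova, and 1 rose and 1 fell in IC. The gene that fell was *Scd2*, a fatty acid desaturase, which went from 436 ± 29.0 to 288 ± 35.7 CPM in Ova and from 333 ± 17.3 to 173 ± 8.57 in IC (log2 fold change -0.60, SE 0.0761, and -0.94, SE 0.0766). *Arl4c*, a small GTPase, rose by 0.39 in IC. With the replicate block, 1 rose and 5 fell in Ova, and 2 rose and 2 fell in IC, and without mouse B 2 fell under each stimulus. *Apoe*, the apolipoprotein of macrophages, was at -0.22 (SE 0.42) in Ova and 0.20 in IC, which did not pass. *Lpl*, lipoprotein lipase, was at -0.27 and -0.23 and passed in Ova with the replicate block alone (adjusted p = 0.0338). The block also passed the interaction of *Scd2* (-0.34, adjusted p = 0.0144), which was at 0.677 without it.

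Of 8 PPAR targets, 1 rose and 3 fell in Ova, and 2 rose and 3 fell in IC. *Fabp4*, the fatty acid carrier aP2, went from 10.3 ± 2.23 to 1.32 ± 0.705 CPM in Ova and from 21.7 ± 3.06 to 3.64 ± 0.749 in IC (log2 fold change -2.93, SE 0.251, edgeR adjusted p = 7.13e-09, and -2.58, SE 0.227, adjusted p = 1.01e-08). *Angptl4*, an inhibitor of lipoprotein lipase, fell, with log2 fold changes of -2.48 in Ova and -2.34 in IC. *Plin2*, a coat protein of lipid droplets, also fell (-1.21 and -1.30). *Ucp2*, a mitochondrial carrier, rose by 0.41 and by 0.36, the second of which did not pass without mouse C (0.32, adjusted p = 0.0521), and *Hilpda*, a lipid droplet protein, rose by 0.87 in IC. Without mouse C the rises in IC numbered 0 and without mouse D 1, and the replicate block gave 4 falls in Ova.

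Of the 10 other scavenger receptors tested, 1 rose and 5 fell in Ova and 0 rose and 6 fell in IC, and the replicate block gave 8 that fell under each. *Cxcl16*, which also binds oxidized LDL, went from 259 ± 34.3 to 66.7 ± 8.50 CPM in Ova and from 320 ± 52.4 to 91.4 ± 15.8 in IC (log2 fold change -1.96, SE 0.135, and -1.81, SE 0.134). In Ova and IC respectively, the log2 fold changes were -2.87 and -2.75 for *Scara3*, -1.53 and -1.21 for *Stab1*, -1.25 and -1.24 for *Colec12*, and -0.45 and -0.54 for *Scarf2*, all of which passed. *Scarf1* also fell in IC (-0.66). *Ager*, the receptor for glycated proteins, rose in Ova by 0.76 from a mean of 0.852 CPM (adjusted p = 0.0438), and it did not pass without mouse A, C, D or E (adjusted p = 0.0792, 0.0633, 0.147 and 0.107). In IC *Ager* was at 0.67 and passed with the block alone (adjusted p = 0.0258). *Cd68*, which is also on the list of macrophage markers, was at -0.18 (SE 0.22) and -0.23 and passed in IC with the block alone (adjusted p = 0.00619), and *Mrc1*, the mannose receptor, was at -0.26 and -0.10 and passed in Ova with the block alone (adjusted p = 0.00104).

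Few genes of native lipoprotein uptake passed. Of 4 tested, 1 rose and 0 fell in Ova, and 0 passed in IC (edgeR, 0 at an unadjusted p under 0.05). Under the replicate block 2 rose and 1 fell in Ova and 1 rose in IC, and without mouse A 2 rose in Ova. *Lrp8*, an apolipoprotein E receptor, was at 8.72, 5.63, 6.50, 5.11 and 5.33 CPM in DMSO Ova and at 14.4, 14.9, 12.9, 10.7 and 11.5 CPM in iBET Ova. Under IC it was at 23.5, 17.2, 26.6, 18.0 and 20.1 CPM with DMSO and at 16.9, 17.6, 22.9, 15.0 and 17.9 CPM with iBET. All iBET libraries were above all DMSO libraries in Ova, whereas in IC the groups overlapped. The rise in Ova was 1.03 on the log2 scale (SE 0.158, edgeR adjusted p = 1.47e-05), the value in IC was -0.23 (adjusted p = 0.207), and the interaction of -1.26 passed (SE 0.218, adjusted p = 0.0316). The interaction did not pass without mouse A, B, C, D or E (adjusted p from 0.0584 to 0.444), while its value stayed between -1.31 and -1.23, and with the replicate block its adjusted p was 0.000399.

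Of 13 genes of cholesterol storage and intracellular transport, 2 rose and 4 fell under each stimulus. The falls numbered 3 in Ova without mouse C, D or E and 3 in IC without mouse B, C, D or E, and the replicate block gave 5 and 6. *Gramd1a*, a sterol transporter at membrane contacts, rose by 0.62 in Ova and by 0.67 in IC, and *Osbp*, an oxysterol-binding protein, by 0.31 and by 0.24. *Gramd1b*, a relative of *Gramd1a*, fell (-0.62 and -0.78), as did *Osbpl8* (-0.40 and -0.69). *Ch25h*, cholesterol 25-hydroxylase, which makes an oxysterol ligand of LXR, went from 4.03 ± 2.67 to 0.398 ± 0.292 CPM in Ova and from 7.00 ± 1.62 to 0.454 ± 0.243 in IC (log2 fold change -3.29, SE 0.553, edgeR adjusted p = 4.32e-05, and -3.94, SE 0.542, adjusted p = 3.91e-06). *Cyp27a1*, sterol 27-hydroxylase, which makes another, fell by 0.84 in Ova and was at -0.26 in IC (adjusted p = 0.294). *Lipa*, lysosomal acid lipase, fell by 0.44 in IC.

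Of 5 other ABC transporters of lipids, 1 rose and 2 fell under each stimulus. *Abca2* rose by 0.40 in Ova and by 0.48 in IC. Those that fell were *Abcg2* (-0.88 and -0.69) and *Abcg4*, the closest relative of *Abcg1* (-0.98 and -2.04), whose mean with DMSO was 0.844 and 0.911 CPM.

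**Figure D4:**
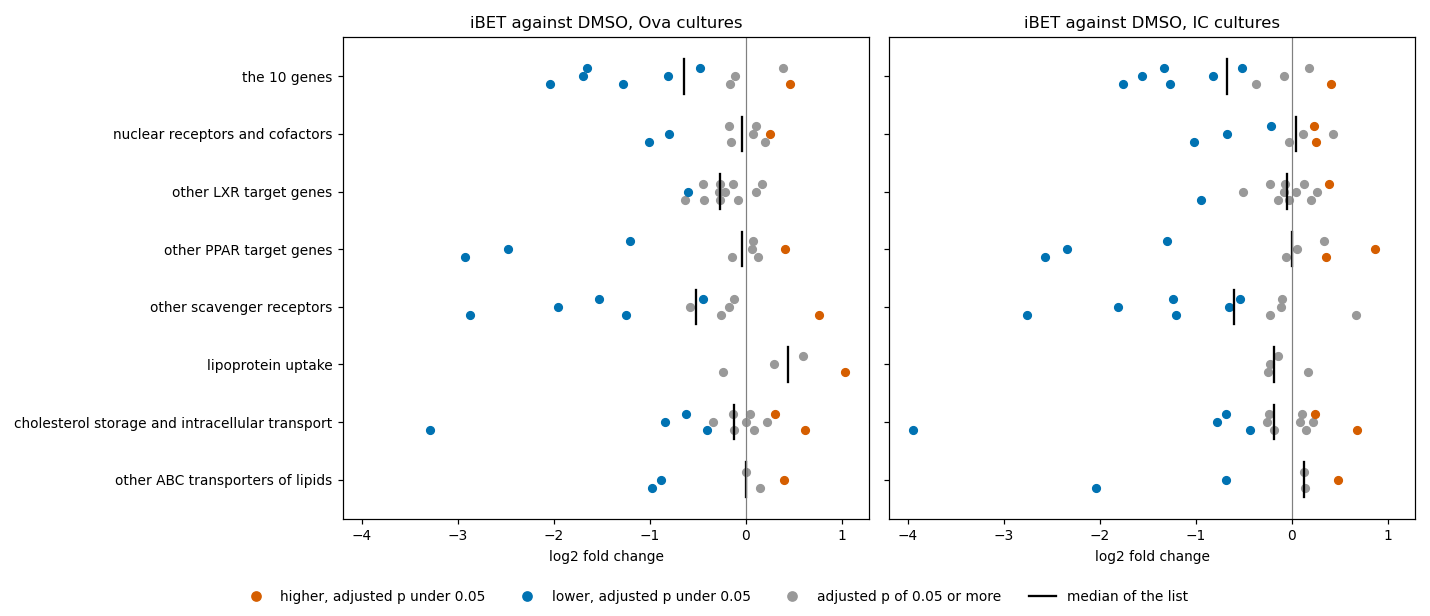
Log2 fold change with iBET in Ova (left) and IC cultures (right) of the 10 genes and of the tested genes of 7 pathway lists, with the median of each list as a black line. Coloured points passed an adjusted p of 0.05, and the 10 genes (median -0.65 in Ova) and the other scavenger receptors (median -0.52) have the medians farthest below 0 in Ova.

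With IC the largest change on these lists that passed in DMSO cultures was that of *Lrp8*, whose values are given above. It rose 3.36-fold with DMSO (log2 fold change 1.75, SE 0.158, edgeR adjusted p = 3.36e-07) and 1.40-fold with iBET (0.49, adjusted p = 0.0424), in 5 of 5 mice and with no overlap of the groups under either. Of the 4 genes of lipoprotein uptake it was the 1 that passed, and with the replicate block 2 rose under each treatment, while with iBET 0 rose without mouse B, C, D or E. In DMSO cultures the 8 PPAR targets had 3 that rose and 0 that fell, and in iBET cultures the same numbers. *Fabp4* rose by 1.07 with DMSO (SE 0.21, edgeR adjusted p = 0.0014) and by 1.43 with iBET, and *Hilpda* by 1.03 and by 1.83. *Plin2* completed the count with DMSO (0.43, adjusted p = 0.0316) and *Slc25a20*, the carnitine carrier, with iBET (0.26, adjusted p = 0.039). With DMSO the count was 1 without mouse C, D or E, and with iBET it was 2 without any one mouse and 5 with the replicate block. *Lipa* rose under both treatments (0.67 and 0.58), and *Cyp27a1* fell with DMSO by 1.13 (SE 0.194, adjusted p = 0.000442). Among the ABC transporters 2 of 5 fell under each treatment, *Abca3* and *Abca7*, with -0.33 and -0.33 in DMSO cultures. With DMSO the count was 1 without mouse B, C or D, and with iBET it was 0 without mouse D, 1 without any other mouse and 3 with the replicate block. Of the genes of storage and transport, 2 rose and 1 fell with DMSO and 3 rose and 0 fell with iBET. The replicate block raised these to 7 and 2 and to 5 and 2, while without mouse D 0 rose under either treatment and without mouse B or C 0 rose with iBET. Of the nuclear receptors and cofactors, 1 rose and 2 fell with DMSO and 0 passed with iBET, of the LXR targets 0 rose and 1 fell and then 1 rose and 1 fell, and of the other scavenger receptors 0 passed and then 1 rose. For the nuclear receptors and cofactors with DMSO, 0 rose without mouse A, B, C or E and 0 fell without mouse C, and the replicate block gave 2 and 2 with DMSO and 2 and 1 with iBET. *Rxra* was among these (0.28 under each treatment, block adjusted p = 0.00211 and 0.00457). The block gave 2 rises and 1 fall of LXR targets under each treatment, and without mouse E 2 LXR targets fell with DMSO. The rise of 1 scavenger receptor with iBET was lost without mouse A, C or D, and without mouse A 1 rose and 1 fell with DMSO. With the replicate block the other scavenger receptors had 3 that rose and 2 that fell under each treatment.

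Over the 20 libraries the genes whose log2 CPM followed each of the 10 most closely were taken from 9332 genes with a mean of at least 5 CPM. For *Olr1* they were *Slc7a11*, the cystine transporter, and *Cipc* (Pearson r 0.98 and 0.97). For *Cd36* they were *Gclm*, a subunit of the enzyme that starts glutathione synthesis, and *Atp6v1g1* (0.96 and 0.96), and for *Msr1* they were *Cd93* and *Mmp14* (0.98 and 0.97). For *Abcg1* they were *Stat6* and *Lrrc25* (0.98 and 0.98), and for *Pparg* they were *Dhx38* and *Mgat4b* (0.99 and 0.98). For *Marco* they were *Acat1* and *Pou4f1* (0.96 and 0.94), for *Abca1* *Gda* and *Il6st* (0.91 and 0.91), for *Mylip* *Os9* and *Narf* (0.93 and 0.93), and for *Scarb1* *Nfs1* and *Actr10* (0.81 and 0.81). *Nr1h3* was below the 5 CPM minimum. With the group means taken out, r was 0.71 and 0.37 for the genes of *Olr1*, 0.60 and 0.53 for those of *Pparg*, 0.82 and 0.70 for those of *Abcg1*, and 0.80 to 0.96 for those of the other 6. The libraries share mice, treatment and sequencing, so these values describe likeness over these 20 libraries and carry no p.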

How the data were processed

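RNA-seq of 20 BMDC libraries (Takara SMARTer pico stranded kit) was processed by the study with CASAVA, FastQC, Trim Galore, HISAT2 on mm10 and featureCounts. The authors deposited the resulting gene counts, which were used as deposited. The gene annotation and strand setting of the counting are not given in the sources used here. A second deposited table holds counts divided by size factors and was not used. Total counts ranged from 16447491 to 29245150, and 6187 of 24421 genes had no count.

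Groups came from the labels, and the mouse of each library was inferred from the order of the titles, which gave 1 library per mouse in each group. Genes passing filterByExpr (12465) were fitted in one model of 20 libraries without a mouse term, with edgeR 4.0.16 (R 4.3.3), TMM normalization and the quasi-likelihood test. P-values were adjusted by Benjamini-Hochberg over all tested genes with a threshold of 0.05. The script was tested on simulated counts with no mouse effect and with changes in iBET Ova alone. That test does not cover libraries that share a mouse, as these do. Since cultures were taken to come from the same animals, a fit with the mouse as replicate block was the paired alternative. Over 30 pairs of libraries of the same mouse, deviations from the group means correlated with a mean r of 0.524 (lowest 0.307), beside -0.127 between mice. Intervals are 2 SE on either side. P-values of the fit without the mouse rest on the spread of levels between the libraries of a group. Those with the replicate block rest on the spread left after the level of each mouse is taken out. None of the 40 pairs of libraries of a group agreed within counting noise (smallest chi-square per degree of freedom 12.8).

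All 10 genes are reported. From each pathway list, the rule named up to 2 genes with the largest rise and 2 with the largest fall with iBET in Ova that passed and moved one way in 5 of 5 mice, and the 2 genes most correlated with each of the 10. Others are said to be chosen after their values were seen. The genes, lists and tests were chosen with earlier results of these data known. Alternatives were DESeq2 1.42.0, other size factors, no filter, surrogate variables (sva 3.50.0), each mouse left out, and, chosen after seeing the data, mice A and B or C, D and E alone. Positions and exon lengths are from GENCODE M21 on GRCm38, and promoters from RefSeq. A few genes of the pathway lists are not reported here and were left out of the list counts.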

Additional observations from a re-analysis of the deposited data

Results flagged for a closer look

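Of 108 gene and group combinations tested for a single library far from the other 4, 3 stood apart, and chance gives about 1 in 20. *Scarb1* in iBET Ova was at 65.9 CPM in mouse A, beside 52.1 to 55.6 in the others. *Ppargc1b* in iBET IC was at 8.40 CPM in mouse E and *Ucp2* in DMSO Ova at 475 CPM in mouse D, each the highest of its group.

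*Lrp8* differed in its response to iBET between the stimuli, with an interaction of -1.26 on the log2 scale (SE 0.218, edgeR adjusted p = 0.0316), lower in 5 of 5 mice. It did not pass when any one mouse was left out, and with the replicate block its adjusted p was 0.000399.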

How the results depend on the processing

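Over 640 recomputations of the log2 fold changes of the 10 genes in 5 comparisons, which leave out the fits of mice A and B or C, D and E alone, 31 changed side of the threshold and 15 changed sign, all 15 for results that had not passed. With the replicate block, *Marco* passed with iBET in Ova at 0.35 (adjusted p = 0.000408), and the calls it changed among the 10 genes are given beside their results, with no other call changed. A minimum change of 1 on the log2 scale left 4 calls with iBET in Ova, 4 in IC, and 1 in each comparison of IC with Ova. For IC against Ova in DMSO, the replicate block gave 4 calls, DESeq2 with the block 4, and mice A and B alone 1. For IC against Ova in iBET, library size only, no filter, the 10 libraries alone and mice A and B alone each gave 1, and leaving out 1 mouse gave 1 to 2. With up to 3 mismatches DR4 and DR1 were in 2 promoters each, and with up to 1 mismatch DR1 was in 0.

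The direction turned as follows, always without passing, and the cause was not tested. For IC against Ova in DMSO, *Marco* was -0.0056 with the replicate block, -0.0067 with DESeq2 and the block, -0.11 with library size only, -0.20 with surrogate variables, -0.13 in mice A and B, and from -0.066 (without mouse C) to 0.050 when 1 mouse was left out. *Abcg1* was 0.010 in mice C, D and E, and *Nr1h3* was -0.11 to 0.040 when 1 mouse was left out (highest without mouse A) and 0.16 in mice C, D and E. For IC against Ova in iBET, mice A and B gave 0.0063 for *Marco*, 0.029 for *Scarb1* and 0.011 for *Abcg1*, mice C, D and E gave 0.015 for *Abca1*, and *Mylip* was -0.057 with library size only, -0.033 with surrogate variables and -0.038 in mice C, D and E. For the interaction, *Msr1* was -0.062 without mouse A, -0.0064 without mouse E, at most 0.097 without another mouse, and -0.074 in mice C, D and E, and *Scarb1* was -0.014 with surrogate variables, -0.0037 to 0.088 when 1 mouse was left out (lowest without mouse A) and -0.059 in mice C, D and E. *Abcg1* was 0.010 without mouse D, 0.015 without mouse E, at lowest -0.047 without mouse B, and 0.078 in mice A and B, *Pparg* was -0.0021 to 0.26 when 1 mouse was left out (lowest without mouse A) and -0.057 in mice C, D and E, and mice A and B gave 0.14 for *Marco*, -0.20 for *Abca1* and 0.094 for *Mylip*.

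Among the 10 genes depth limited *Nr1h3* most, with 18 to 40 reads per library in iBET Ova. Several list genes lay lower still, with means in iBET IC of 0.454 CPM for *Ch25h*, 0.226 for *Abcg4* and 0.474 for *Scara3*. The share of each cell type was not measured.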

Other observations

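Over the 20 libraries, log2 CPM of *Abcg1* and *Pparg* correlated at r = 0.94, *Abcg1* and *Nr1h3* at 0.92, and *Nr1h3* and *Pparg* at 0.92. After the group means were taken out these values were 0.53, 0.20 and -0.09. For *Msr1* and *Cd36* the order was the other way, with 0.69 over all libraries and 0.88 within groups. *Marco* and *Abca1* correlated at -0.74 over all libraries and at -0.86 within groups. These are descriptions over libraries that share mice, treatment and sequencing, with no p.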
